A study of Mus musculus with 24 samples.

Results

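The untreated state of MS03 cells was described from the 3 libraries of cells that received the vehicle dimethyl sulfoxide (DMSO) alone, chosen by their treatment label out of 24 libraries in 8 treatment groups. MS03 is an immortalized murine Schwann cell (SC) line made from cells of an *Nf2* flox/flox animal after delivery of Cre, and the labels give its genotype as *Nf2*-/-. It was grown in DMEM with 10% fetal bovine serum, held in DMSO for 24 hours, and its poly(A) RNA was sequenced. All 8 groups of these 24 libraries were this one line, so no *Nf2*-competent or primary SC stood beside it among them. The other groups, which received inhibitors or degraders of focal adhesion kinase (FAK), were not used here. The labels call the libraries biological replicates without saying whether they came from separate cultures or days, so the spread between them may be technical. No test was made within this single group, and every value below is a level with its spread.

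*Nf2* encodes merlin, a tumor suppressor that links the cell cortex and cell contacts to growth control, and its loss in SCs gives rise to schwannoma. SCs derive from the neural crest, a lineage carried by the transcription factor SOX10, and mature either into myelinating cells, which need axonal contact and EGR2, or into nonmyelinating cells. After nerve injury they dedifferentiate to a JUN-dependent repair state that releases trophic factors and recruits macrophages.

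The 3 libraries held 22952048, 27449516 and 25126532 counts. Levels are given as counts scaled to a library total of 1000000 (CPM), as mean ± SD over n = 3 unless the libraries are listed in the order of replicates 1, 2 and 3. Where genes were compared with each other, CPM was divided by the length of the merged exons of all annotated transcripts in kilobases (CPM/kb). This length can exceed that of the transcripts in use, so rankings by CPM/kb depend on it. A gene was called expressed at 1 CPM or more in all 3 libraries, undetected at 3 counts or fewer in each, and trace between these. A count of 0 therefore allows a level of up to 0.131, 0.109 or 0.119 CPM in replicates 1, 2 and 3, and this floor, like the intervals given below, covers counting error only.

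Of 49315 genes, 12203 were expressed (24.7%), 6863 were trace and 30249 were undetected. Among 21811 protein-coding genes, 11000 were expressed (50.4%), which is the background for the gene lists below, along with a median of 0.417 CPM/kb over protein-coding genes. The 54 lists held 1158 genes, of which 586 were expressed (50.6%), close to that background, so that what follows is about the contrasts between and within lists. Expressed genes held 99.72% of the counts, and their median was 33.6 CPM or 7.36 CPM/kb. The counts were spread broadly, with 994 genes holding the first 50% of them and the 20 highest genes 7.66%. These 20 were genes of translation (*Eef1a1*, *Eef2*, *Rplp0*, *Pabpc1*, *Eif5a*), the nucleolus (*Ncl*, *Npm1*), chaperoning (*Hsp90ab1*), chromatin (*Ptma*), glycolysis (*Pkm*, *Gapdh*, *Ldha*), the cytoskeleton (*Actb*, *Vim*) and mitochondrial respiration (*mt-Co1*, *mt-Nd1*, *mt-Cytb*, *mt-Nd5*, *mt-Nd2*), together with *Gm42418*, a gene model whose level was uneven between the libraries. None of 1092 olfactory receptor genes and none of 293 vomeronasal receptor genes was expressed, and their summed levels were 3.57 to 3.86 and 1.42 to 1.87 CPM per library. Of 49 keratin genes, 4 were expressed.

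Promoter windows of expressed genes were richer in CpG than those of silent genes. A RefSeq window of 250 bases before to 50 bases after the start (GRCm38.p6, the most upstream window of each gene) was matched to 16332 of 21811 protein-coding genes. The median number of CpG dinucleotides in the window was 22 in 8692 expressed genes (quartiles 15 and 29), 8 in 1677 trace genes and 3 in 5963 undetected genes (quartiles 1 and 8), beside 14 over all windows. The median GC content was 61.3%, 56.0% and 48.3% in the same order. Motifs, none of which contains another, were counted on both strands. The letters TATAAA were found in 6.16% of expressed, 22.7% of undetected and 12.8% of all windows, and CCCGCC in 66.3%, 21.1% and 47.3%. TGANTCA, the letters of an AP-1 site, was in 4.29%, 10.6% and 7.03%, and GGAATG, the letters of a TEAD site, in 11.4%, 15.0% and 13.2%, and neither of these was more frequent in windows of expressed genes. A match of letters does not show a bound factor. The windows below are shown for a SC lineage gene that was on (*Foxd3*, 18.4 ± 1.08 CPM), a myelin gene that was off (*Mag*, no count), a receptor on which the study turns (*Met*, 229 ± 3.73 CPM) and its silent ligand (*Hgf*, 3 counts in all), each 5′ to 3′ on the gene's strand with CpG in capitals.

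*Foxd3*, chr4:99656049-99656348, plus strand: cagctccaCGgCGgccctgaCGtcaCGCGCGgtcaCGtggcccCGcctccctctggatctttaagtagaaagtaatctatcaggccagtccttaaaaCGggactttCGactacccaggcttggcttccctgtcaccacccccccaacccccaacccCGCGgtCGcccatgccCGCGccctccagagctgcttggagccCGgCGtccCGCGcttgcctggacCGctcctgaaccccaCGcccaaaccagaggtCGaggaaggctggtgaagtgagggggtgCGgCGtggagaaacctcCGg

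*Mag*, chr7:30914873-30915172, minus strand: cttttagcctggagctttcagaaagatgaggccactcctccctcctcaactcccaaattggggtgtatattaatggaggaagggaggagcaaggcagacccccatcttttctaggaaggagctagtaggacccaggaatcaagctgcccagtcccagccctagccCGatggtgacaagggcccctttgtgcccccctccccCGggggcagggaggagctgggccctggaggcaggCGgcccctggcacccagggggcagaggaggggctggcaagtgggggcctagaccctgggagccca

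*Met*, chr6:17463707-17464006, plus strand: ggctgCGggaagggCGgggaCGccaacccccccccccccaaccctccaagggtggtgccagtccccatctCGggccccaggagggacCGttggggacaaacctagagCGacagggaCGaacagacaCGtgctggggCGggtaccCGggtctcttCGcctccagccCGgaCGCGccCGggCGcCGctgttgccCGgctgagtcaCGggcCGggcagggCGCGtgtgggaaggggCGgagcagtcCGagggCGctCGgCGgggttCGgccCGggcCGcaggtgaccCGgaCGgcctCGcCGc

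*Hgf*, chr5:16553245-16553544, plus strand: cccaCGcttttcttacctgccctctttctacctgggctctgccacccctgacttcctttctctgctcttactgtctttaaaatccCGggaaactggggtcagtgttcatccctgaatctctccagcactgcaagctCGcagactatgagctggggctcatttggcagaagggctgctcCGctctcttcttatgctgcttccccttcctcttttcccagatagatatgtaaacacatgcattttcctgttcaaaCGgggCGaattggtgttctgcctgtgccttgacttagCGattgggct

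The windows of the expressed genes *Foxd3* and *Met* held 25 and 34 CpG, and those of the undetected genes *Mag* and *Hgf* held 3 and 7. *Met* had both TGANTCA and CCCGCC, *Foxd3* had CCCGCC, and the other two had none of the 4 motifs. This contrast did not hold gene by gene. *Pmp22* and *Prx*, which were expressed, had 3 CpG each, whereas *Egr2*, which was trace, had 32.

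**Figure D1:**
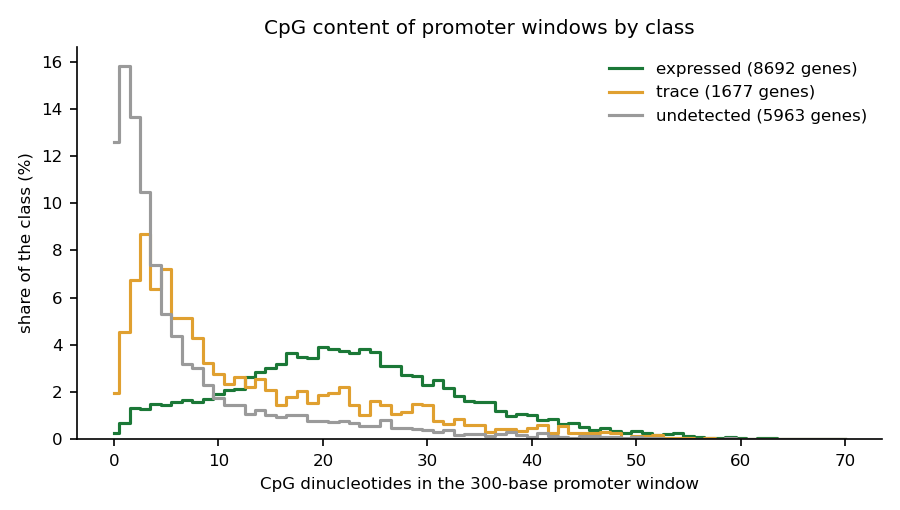
Number of CpG dinucleotides in the 300-base promoter window (x axis) against the share of genes of each class in percent (y axis), for expressed, trace and undetected protein-coding genes of the DMSO libraries. Undetected genes gather at low counts, with a median of 3, and expressed genes form a broad peak with a median of 22.

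The SC lineage was present at the level of its transcription factors and weak in its surface and cytoplasmic markers. Of the 15 genes of the lineage list 10 were expressed, with a median of 0.579 CPM/kb, and 5 of the 6 defining markers were among them. At 1 CPM/kb in place of 1 CPM, 6 of the 15 were expressed. *Sox10* (chromosome 15, 79154908 to 79165240, minus strand), the lineage regulator, was at 19.0, 19.6 and 19.6 CPM. *Foxd3*, a neural crest factor kept in glial precursors, was at 17.4, 19.6 and 18.2 CPM. Both were steady between libraries, and at 6.36 and 7.91 CPM/kb they lay close to the median of expressed genes. *Tfap2a* and *Pax3*, which mark SC precursors and immature SCs, were at 50.7 ± 1.19 and 22.0 ± 0.690 CPM, and *Zeb2*, which represses inhibitors of SC maturation, was at 80.1 ± 2.38 CPM. Other defining markers were lower: *Erbb3*, the neuregulin receptor of SCs, was at 3.75, 3.39 and 2.94 CPM, and *Cdh19*, a cadherin of SC precursors, was at 1.35, 1.53 and 1.63 CPM. *S100b*, the calcium-binding protein by which SCs are usually recognized, was trace, with 1, 4 and 5 counts and a pooled level of 0.0635 to 0.243 CPM (exact Poisson 95% interval). *Fabp7*, *Ednrb*, *Tfap2b* and *Gfra3* were undetected. In bulk RNA, fewer expressing cells and less RNA in each cell cannot be told apart.

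Genes of the myelinating SC were split. Of 18, 8 were expressed (median 0.193 CPM/kb), 5 were trace and 5 were undetected. Of the 5 defining genes 3 were expressed and 1 was undetected. *Egr2*, the regulator of myelination, was trace with 3, 3 and 5 counts, and *Mag*, an adhesion protein of the inner myelin wrap, had no count. By contrast *Pmp22*, *Mbp* and *Prx*, structural proteins of myelin or of its outer collar, were expressed at 12.2 ± 1.12, 14.9 ± 0.964 and 15.9 ± 0.898 CPM. *Pou3f1* and *Pou3f2*, POU factors of the promyelinating stage, were also expressed, at 6.17 ± 0.532 and 10.5 ± 0.308 CPM, as was *Cnp*, a myelin-associated phosphodiesterase, at 24.3 ± 0.948 CPM.

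Of the 17 genes of the immature and repair SC, 13 were expressed, and the median was 2.92 CPM/kb. *Jun*, the regulator of the repair state, was at 98.2, 98.2 and 94.4 CPM, and *Sox2*, which holds SCs immature, was at 51.5, 52.5 and 53.0 CPM. *Ngfr*, the p75 neurotrophin receptor, was lower at 9.28, 10.2 and 10.8 CPM. The intermediate filament genes *Vim* and *Nes* were the highest of the list at 425 and 95.7 CPM/kb, and *Cdh2*, the N-cadherin gene, was at 23.4 CPM/kb. The trophic factors *Gdnf* (63.8 ± 1.20 CPM) and *Artn* (41.5 ± 0.824 CPM), which repair SCs provide to axons, were expressed. Other parts of the repair program were not: *Gap43*, a growth-associated protein, had 3, 5 and 6 counts, *Olig1*, a transcription factor induced in repair cells, had 14, 8 and 13, and *Shh*, which is induced with the program in injured nerve, had none.

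Most genes of the lists for blood, vessel, epithelial, neuronal, muscle, fat and liver cells were trace or undetected. No gene was expressed out of 10 lymphocyte genes, 8 pluripotency and germline genes and 5 hepatocyte genes. The pan-leukocyte gene *Ptprc* and the macrophage gene *Adgre1* had no count, *Itgam* had 1, *Aif1* had 5, 4 and 2 and *Csf1r* had 12, 10 and 10, and 1 of 15 macrophage genes was expressed, the lysosomal gene *Cd68* at 3.24 ± 0.353 CPM. The summed level of the macrophage list was 4.53 to 4.86 CPM per library. In the endothelial list *Pecam1* had 12, 10 and 7 counts, *Cdh5* had 2 and *Vwf* had 6 in all, *Kdr* had none, and the fenestral diaphragm gene *Plvap* alone was expressed, at 60.8 ± 4.88 CPM. Of the neuronal genes *Snap25* and *Rbfox3* were undetected and *Elavl3* was trace, whereas the sensory neuron factor *Pou4f1* was at 7.81 ± 0.611 CPM and the tubulin gene *Tubb3* at 2.69 ± 0.128 CPM. Of 7 central glial genes 1 was expressed, *Gja1*, which encodes the gap junction protein connexin 43 of astrocytes and many other cells, at 98.5 ± 3.03 CPM, while *Mog* and *Aqp4* were undetected and *Olig2* was trace. *Cdh1*, *Epcam* and *Krt5* of epithelium were undetected, and the keratin genes *Krt18* (3.52 ± 0.244 CPM) and *Krt19* (1.73 ± 0.163 CPM) were the 2 expressed members of 11. In the striated muscle list *Myod1* and *Myog* were undetected, *Acta1*, a skeletal muscle actin, was trace with 17, 25 and 22 counts, and *Ttn*, the titin gene, was the 1 expressed member of 9, at 3.48 ± 0.473 CPM. In the fat list *Adipoq*, *Pparg* and *Plin1* were undetected and the transcription factor *Cebpa* was the 1 expressed member of 7, at 5.28 ± 0.449 CPM. Melanocytes, the sister lineage of SCs, were represented by *Mitf* at 6.24 ± 0.106 CPM, with *Tyr* and *Dct* undetected and *Pmel* trace.

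The mesenchymal lists held sharp contrasts between single genes. Of 17 fibroblast genes 4 were expressed, and 3 of these 4 encode fibrillar collagens: *Col1a2* at 1288, 1319 and 1306 CPM, *Col1a1* at 369, 388 and 379 CPM and *Col3a1* at 329.6, 343 and 324 CPM. The proteoglycan genes *Dcn* and *Lum*, which fibroblasts express with these collagens, had no count in any library, *Thy1* had 1 count, and *Pdgfra*, a PDGF receptor of fibroblasts, was at 11.9 ± 0.891 CPM. Of the 4 defining genes of the fibroblast list, *Pdgfra* was the only one expressed, and the other 3 were undetected. In the smooth muscle and pericyte list 2 of 14 genes were expressed, *Smtn*, encoding smoothelin (135 ± 2.76 CPM), and the adhesion gene *Mcam* (27.5 ± 1.45 CPM), while *Acta2*, *Myh11* and *Myocd* were undetected and *Des* and *Cnn1* were trace. *Spp1*, the osteopontin gene placed in the bone list, was at 992, 1006 and 971 CPM, whereas *Sp7*, *Acan* and *Col2a1* of bone and cartilage were undetected and *Bglap* was trace. *Msln*, the mesothelin gene, was at 401, 416 and 415 CPM, with *Wt1* and *Upk3b* trace and *Lrrn4* undetected. *Msln* stands also in the perineurial list, of which 5 of 8 genes were expressed, with a median of 0.924 CPM/kb, above the 0.579 CPM/kb of the SC lineage list. Of its 3 defining genes 2 were expressed and none was undetected, whereas 2 of its other members were undetected. *Slc2a1*, the glucose transporter of the perineurium and of many dividing cells, was at 258 ± 2.58 CPM, the tight junction gene *Tjp1* at 185 ± 6.47 CPM, *Ntn4* at 5.58 ± 0.210 CPM, *Itgb4* at 2.50 ± 0.332 CPM and the barrier claudin *Cldn1* trace. Of 13 neural crest and mesenchymal transcription factors 6 were expressed (46.2%, beside 50.4% of protein-coding genes), 2 were trace and 5 were undetected. The expressed ones were *Ets1* (143 ± 3.15 CPM), *Zeb1* (37.7 ± 2.08 CPM), *Prrx1* (26.7 ± 0.424 CPM) and *Snai2* (7.35 ± 0.543 CPM), with *Snai1* (2.34 ± 0.203 CPM) and *Sox9* (3.75 ± 0.421 CPM). *Twist1* had no count.

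**Figure D2:**
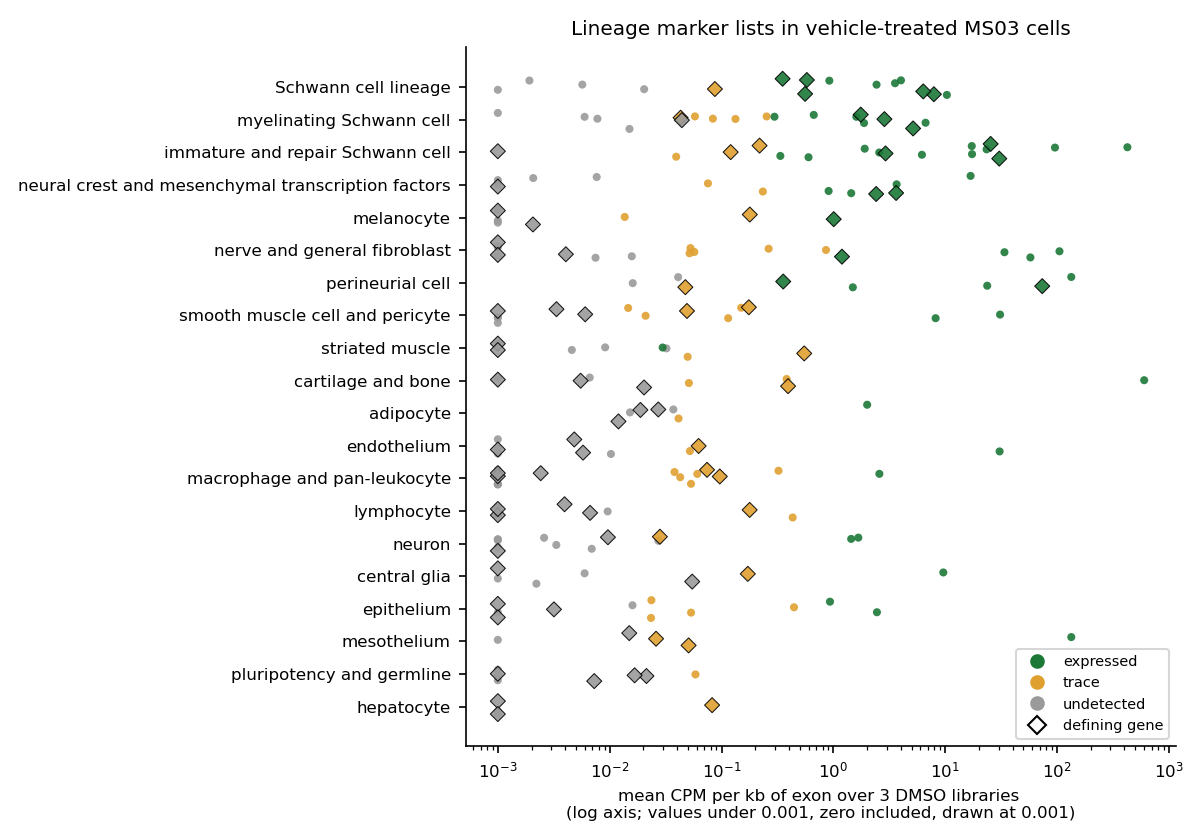
Mean CPM/kb over the 3 DMSO libraries (x axis, log scale, values under 0.001 drawn at 0.001) of each gene of 20 lineage lists (rows, with a vertical scatter that has no meaning). Colors give the class and diamonds the defining genes. The SC rows at the top hold most of the expressed defining genes, and in most other rows the expressed genes are a few isolated points, such as *Spp1* at 600.5 CPM/kb and *Msln* at 134 CPM/kb.

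Hox genes, which record the position of a cell along the body axis, were nearly silent. Of 39, 4 were expressed, 13 were trace and 22 were undetected, with a summed level of 13.6 to 14.9 CPM per library. *Hoxb6* was at 4.84, 4.26 and 4.82 CPM, *Hoxb9* at 1.92, 2.19 and 1.79 CPM, *Hoxc6* at 1.52, 1.97 and 1.83 CPM and *Hoxb5* at 1.05, 1.13 and 1.23 CPM. Only *Hoxb6* stood clear of the threshold. *Hoxa5* was trace with 20, 25 and 23 counts, *Hoxc8* and *Hoxd13* had none, and no gene of the HoxD cluster was expressed. Head and limb factors were also mainly off. *Otx2*, *Tbx4*, *Tbx5* and *Pitx1* were undetected, and the expressed members included the homeobox cofactor *Meis2* (25.2 ± 1.26 CPM) and *Lmx1b* (11.7 ± 0.673 CPM), with *Meis1* lower.

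*Xist*, the RNA that coats the inactive X chromosome, was at 1229, 1273 and 1250 CPM, and the Y-linked genes *Ddx3y*, *Eif2s3y*, *Uty* and *Kdm5d* had at most 1 count in a library. Of 22 imprinted genes 11 were expressed. *Igf2r* (466 ± 6.80 CPM), which takes up IGF2, and *Peg10* (291 ± 4.95 CPM) were the highest per kilobase, and *Peg3* was at 43.7 ± 0.270 CPM. *H19* was at 2.68 ± 0.439 CPM while its neighbor *Igf2* was undetected, and *Dlk1* and *Meg3* of a shared locus had no count.

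Receptor tyrosine kinases (RTKs) pass signals of growth factors and matrix into the cell. Of 58 RTK genes 26 were expressed (44.8%, beside 50.4% of protein-coding genes), 13 were trace and 19 were undetected. *Axl*, a TAM family receptor (chromosome 7, 25757273 to 25788705, minus strand), was at 1195, 1210 and 1213 CPM, which at 239.6 CPM/kb was the highest of the family. The collagen receptor *Ddr2* followed at 43.1 CPM/kb (399.7 ± 7.47 CPM), the ephrin receptor *Epha2* at 40.9 (191 ± 2.86 CPM), and *Met*, the receptor of hepatocyte growth factor (HGF; chromosome 6, 17463800 to 17573980, plus strand), at 29.8 (230, 225 and 232 CPM in the libraries). In CPM/kb *Ddr2* and *Epha2* were close, and *Axl* lay far from both. *Erbb2*, the partner of *Erbb3*, was at 61.5 ± 0.881 CPM and *Pdgfrb* at 22.4 ± 2.21 CPM. *Egfr* was trace, with 3, 7 and 3 counts and a pooled level of 0.0916 to 0.294 CPM. The neurotrophin receptor kinases *Ntrk2* and *Ntrk3* were undetected, as were *Ret*, *Kit*, *Kdr*, *Alk* and *Erbb4*. All 3 TAM receptors (*Axl*, *Tyro3* and *Mertk*) and both DDR collagen receptors were expressed.

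**Figure D3:**
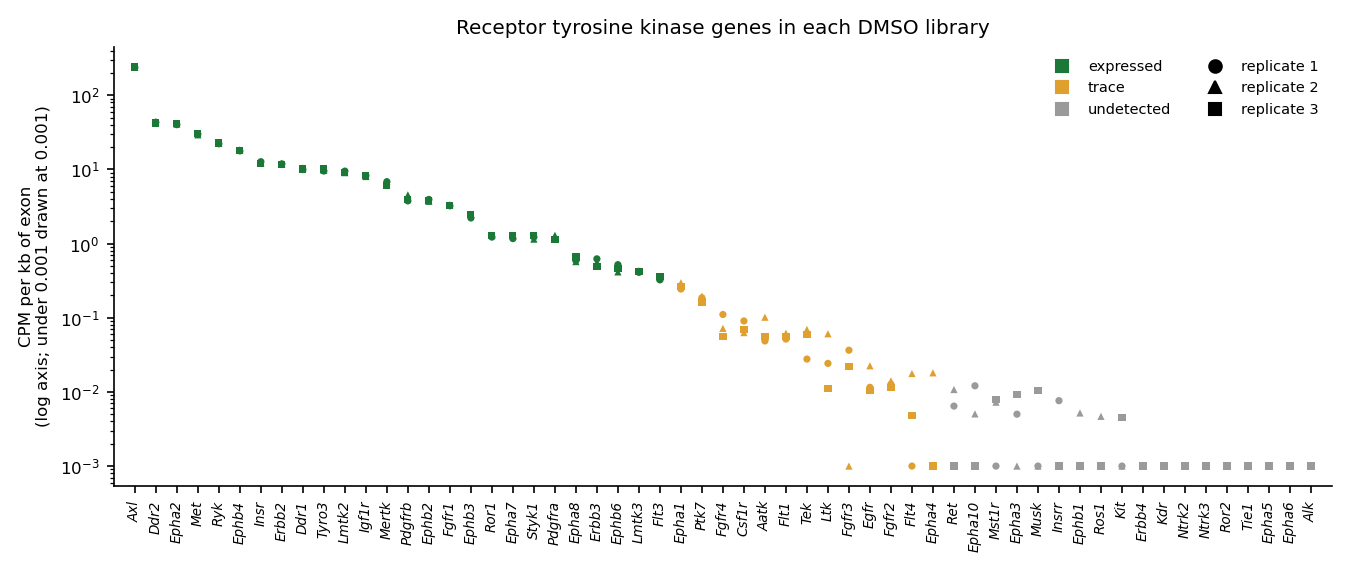
CPM/kb (y axis, log scale, values under 0.001 drawn at 0.001) of 57 of the 58 receptor tyrosine kinase genes (x axis, ordered by mean) in each of the 3 DMSO libraries, with class by color and replicate by symbol. The symbols of expressed genes overlap one another, *Axl* stands alone at 239.6 CPM/kb, and *Egfr* lies among the trace genes.

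Of 27 integrin subunits 18 were expressed, with a median of 0.380 CPM/kb, below the 0.417 CPM/kb of protein-coding genes, and 9 of them reached 1 CPM/kb in all libraries. *Itgb1*, the common beta chain, was at 916 ± 20.2 CPM, and the chains of highest level after it were *Itga3* (604 ± 6.89 CPM), *Itgb5* (160.3 ± 3.92 CPM), *Itga7* (299.9 ± 3.22 CPM) and *Itgav* (287 ± 7.80 CPM), which take part in laminin or vitronectin receptors. *Itga6*, *Itgb4* and *Itgb8*, laminin and TGF-beta binding chains of SCs, were at 50.7 ± 1.08, 2.50 ± 0.332 and 4.21 ± 0.336 CPM. The leukocyte chains *Itgal*, *Itgam* and *Itgax* were undetected. Of 21 guidance receptors 11 were expressed, led by the semaphorin receptor genes *Plxnb2* (392 ± 2.89 CPM) and *Nrp2* (368 ± 6.57 CPM), with *Nrp1* at 19.1 ± 1.05 CPM, the netrin receptors *Unc5b* (145 ± 1.66 CPM) and *Neo1* (105 ± 1.95 CPM), and *Robo1* trace.

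Of 29 cytokine and death receptors 19 were expressed, with a median of 2.31 CPM/kb. They included *Tnfrsf12a*, the TWEAK receptor (301 ± 3.27 CPM), *Il6st*, the shared chain of the IL-6 family (278 ± 6.89 CPM), the lymphotoxin receptor *Ltbr* (69.6 ± 0.990 CPM), the TNF receptor *Tnfrsf1a* (59.0 ± 1.19 CPM), and *Ifngr1* (40.2 ± 1.75 CPM). *Lifr* was trace with 21, 13 and 21 counts. Of 32 Notch, Hedgehog, Wnt and TGF-beta family receptors 23 were expressed. *Smo* (235 ± 4.35 CPM) and *Ptch1* (60.9 ± 0.850 CPM) of the Hedgehog pathway, *Notch2* (195 ± 4.71 CPM), the BMP receptor *Bmpr1a* (104 ± 3.32 CPM) and *Tgfbr2* (83.0 ± 2.24 CPM) were among them, and *Notch1* was lower at 13.2 ± 0.495 CPM. Of 40 G protein-coupled receptors 15 were expressed, a share below the background. The thrombin receptor *F2r* was the highest per kilobase (184 ± 6.47 CPM), followed by the lysophosphatidic acid receptors *Lpar1* (45.1 ± 0.943 CPM) and *Lpar6* (35.8 ± 1.96 CPM) and the sphingosine 1-phosphate receptor *S1pr2* (39.1 ± 1.93 CPM). *S1pr3*, *Ednra* and *Cxcr4* were undetected.

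Of 66 growth factors and trophic ligands 36 were expressed. *Csf1*, the main growth factor of macrophages, was the highest per kilobase, at 444, 444 and 447 CPM, followed by *Pdgfa* (152 ± 4.80 CPM), *Vegfb* (55.6 ± 4.97 CPM), *Pdgfb* (118 ± 4.21 CPM) and the EGF family member *Hbegf* (132 ± 2.65 CPM). *Nrg1*, the neuregulin that drives SC survival, and *Tgfb1* were at 15.2 ± 0.278 and 6.58 ± 0.521 CPM. *Hgf* was undetected, with 3, 0 and 0 counts and a pooled level of 0.00819 to 0.116 CPM.

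When 57 ligand and receptor pairs were read together, 14 had both sides expressed, 20 the ligand only, 14 the receptor only and 9 neither. Both sides were expressed for *Spp1* and its receptor *Cd44* (329.9 ± 1.97 CPM), for *Nrg1* with *Erbb3* and *Erbb2*, for *Pdgfa* and *Pdgfc* with *Pdgfra*, for *Pdgfb* with *Pdgfrb*, for *Fgf2* (4.28 ± 0.290 CPM) with *Fgfr1* (32.5 ± 0.559 CPM), for *Dhh* (10.7 ± 0.285 CPM) with *Ptch1*, for *Jag1* with *Notch1* and *Notch2*, and for *Pros1* (14.0 ± 0.911 CPM) with *Mertk* (28.6 ± 2.13 CPM). Further pairs of this kind were *Tgfb1* and *Tgfb2* with their receptors and *Inhba* with the activin receptors. Transcript of a ligand and its receptor in one population does not show that the proteins meet.

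In the pairs with a receptor only, *Axl* and *Met* had the highest receptor levels per kilobase, and their ligands were at the floor. *Gas6*, the ligand of AXL, had 0, 1 and 0 counts, beside 27433, 33215 and 30471 of *Axl*. *Hgf* had 3, 0 and 0 counts beside 5279, 6177 and 5838 of *Met*. *Igf1* had no count and *Igf2* had 3 in all, beside *Igf1r* at 138 ± 2.77 CPM. *Pros1*, a ligand of TAM receptors that was paired here with *Mertk* and not with *Axl*, was expressed. Serum in the medium may have held further ligands, which RNA does not show and which were not measured. *Il6*, *Il1b* and *Tnf* were undetected while *Il6ra* (29.9 ± 2.05 CPM), *Il1r1* (4.16 ± 0.280 CPM) and *Tnfrsf1a* were expressed. *Bmp4* and *Il11* were trace beside *Bmpr2* (137 ± 6.52 CPM) and *Il11ra1* (3.46 ± 0.762 CPM), *Fgf1* was trace and *Pdgfd* undetected beside *Fgfr1* and *Pdgfrb*, and *Cxcl12* was undetected beside *Ackr3* (1.99 ± 0.215 CPM). Neither side was expressed for *Osm* with *Osmr*, *Mst1* with *Mst1r*, *Angpt1* with *Tek*, *Wnt5a* with *Ror2*, *Ntf3* with *Ntrk3*, *Il33* with *Il1rl1*, *Cxcl12* with *Cxcr4*, or *Tgfa* and *Ereg* with *Egfr*.

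In the pairs with a ligand only, several of the receptors are known from cells that surround SCs in nerve. *Csf1* and *Il34* (52.7 ± 1.05 CPM), both ligands of the macrophage receptor CSF1R, were expressed, and *Csf1r* was trace. *Vegfa* (113 ± 2.37 CPM) stood beside *Kdr* with no count, and *Kitl* (72.4 ± 1.76 CPM) beside *Kit* with 1 count. *Gdnf* and *Artn* stood beside *Ret* with 3 counts, *Bdnf* (3.73 ± 0.135 CPM) beside undetected *Ntrk2*, and *Edn1* (14.4 ± 0.580 CPM) beside undetected *Ednra* and *Ednrb*. *Hbegf* and *Egf* (2.33 ± 0.287 CPM) were expressed with *Egfr* at trace level. The same held for *Vegfc* (6.24 ± 0.564 CPM) with *Flt4*, *Fgf7* (20.7 ± 1.10 CPM) with *Fgfr2* and *Angpt2* (3.15 ± 0.557 CPM) with *Tek*, all 3 receptors being trace. The chemokines *Ccl2* and *Cxcl1* were expressed and *Ccr2* and *Cxcr2*, receptors of *Ccl2* and *Cxcl1*, had no count.

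**Figure D4:**
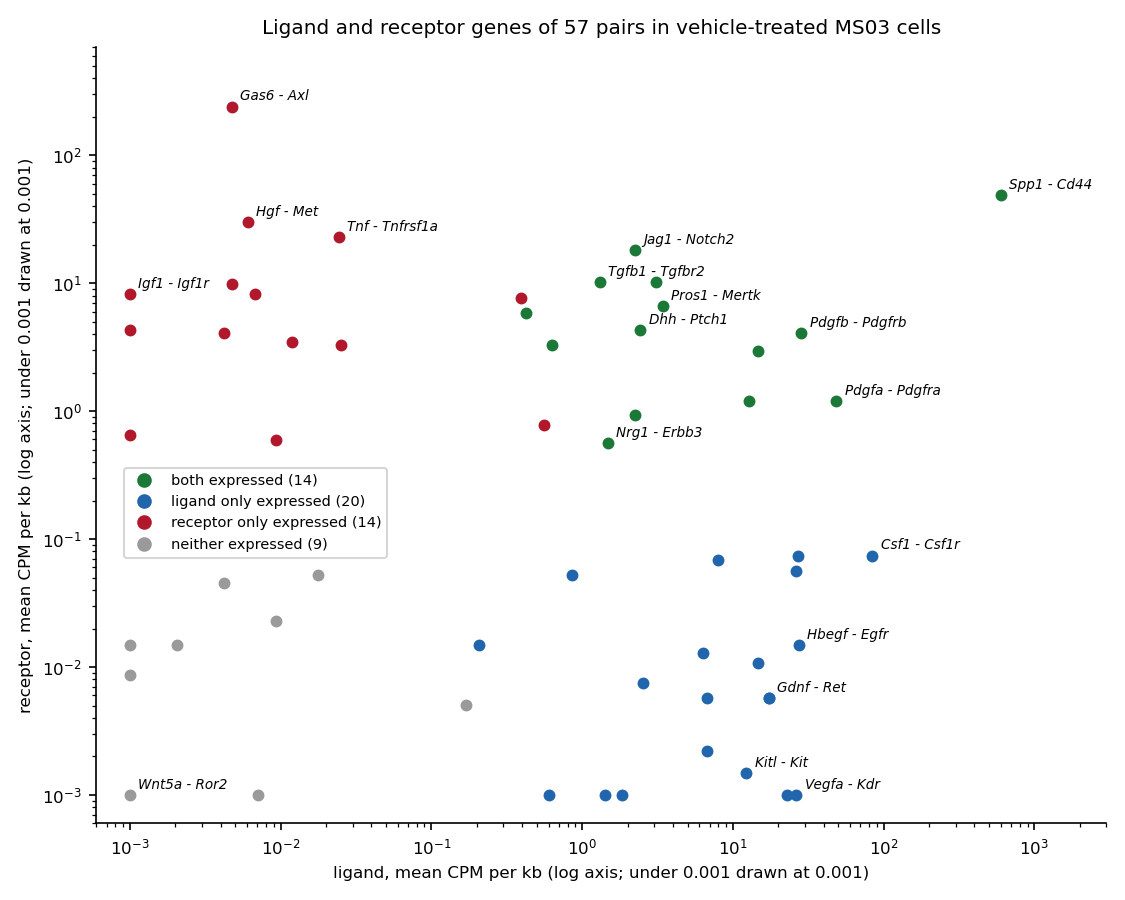
Mean CPM/kb of the ligand gene (x axis) and the receptor gene (y axis) of 57 pairs, both on log scales with values under 0.001 drawn at 0.001. Colors give which side was expressed, coreceptors included, and some pairs are named. *Gas6* with *Axl* and *Hgf* with *Met* lie at the upper left (receptor only), *Spp1* with *Cd44* at the upper right, and *Csf1* with *Csf1r* and *Hbegf* with *Egfr* at the lower right (ligand only).

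Of 44 collagen chains 18 were expressed, with a summed level of 3990 to 4097 CPM per library. *Col1a2* (105 CPM/kb), the basement membrane collagen *Col18a1* (77.3), *Col1a1* (57.7) and *Col5a1* (51.3) were the highest. The *Col1a2* level per kilobase was above that of *Col1a1*, whose product joins it in type I collagen, and *Col4a1* was at 224 ± 4.12 CPM. *Col6a1* was expressed at 12.1 ± 0.830 CPM, whereas *Col6a2*, which encodes the chain that pairs with it, was trace and *Col6a3* was undetected. *Col28a1*, a collagen of peripheral nerve SCs, had no count.

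Of 15 laminin and basement membrane genes 11 were expressed, with a median of 3.41 CPM/kb. *Lamc1* (472 ± 2.96 CPM) and *Lamb1* (509.6 ± 9.38 CPM), shared by most laminins, were joined by the alpha chain *Lama5* (824 ± 12.5 CPM) and the proteoglycans *Hspg2* (733 ± 17.0 CPM) and *Agrn* (229 ± 2.48 CPM). *Lama2* and *Lama4*, the alpha chains of the endoneurial SC basement membrane, were at 6.40 ± 0.549 and 8.68 ± 0.157 CPM. Per kilobase *Lama5* was at 72.4, *Lama4* at 0.719 and *Lama2* at 0.392, and *Lama1* and *Lama3* were undetected. Per kilobase, 1 alpha chain therefore made up most of the laminin alpha transcript.

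Of 53 matrix glycoprotein and proteoglycan genes 27 were expressed. After *Spp1*, the highest per kilobase were *Sparc* (1252 ± 36.3 CPM), the YAP target *Cyr61* (322 ± 7.00 CPM), the syndecan *Sdc4* (366 ± 8.33 CPM) and *Thbs1* (609 ± 10.8 CPM). *Fn1*, encoding fibronectin, was at 1056 ± 11.9 CPM and *Tnc*, encoding tenascin-C, at 89.5 ± 1.30 CPM. *Postn*, encoding periostin, was trace with 5, 8 and 7 counts and a pooled level of 0.162 to 0.409 CPM, and *Bgn*, *Fbln2* and *Eln* were undetected. Of 46 matrix enzymes and inhibitors 32 were expressed. They were led by *Serpinh1*, the collagen chaperone (731 ± 1.14 CPM), the protease inhibitors *Timp1* (81.6 ± 1.96 CPM) and *Timp2* (240.1 ± 9.65 CPM), and the collagen hydroxylases *P4ha1* (234 ± 3.54 CPM) and *Plod3* (183 ± 2.35 CPM). *Mmp14*, a membrane-bound protease, was at 221 ± 4.04 CPM and the gelatinase *Mmp2* at 8.19 ± 0.953 CPM. The collagen crosslinking gene *Lox* was undetected, with 0, 1 and 1 counts, and of its relatives *Loxl1*, *Loxl3* and *Loxl4* were expressed and *Loxl2* was trace with 13, 12 and 11 counts.

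Genes of glycolysis, lipid synthesis and serine synthesis were on, and *Pklr*, *Pck1* and *G6pc*, which are known from liver, were off. Of 40 genes of glucose uptake, glycolysis and lactate 28 were expressed, with a median of 6.60 CPM/kb and a sum of 18230 to 18395 CPM per library. *Pkm* (3942 ± 19.1 CPM), *Pgk1* (1673 ± 16.7 CPM), *Gapdh* (2950 ± 46.7 CPM), *Ldha* (2215 ± 12.7 CPM) and *Aldoa* (1432 ± 11.3 CPM) were the highest per kilobase. *Hk2*, the inducible hexokinase, was at 184 ± 2.00 CPM and the liver and testis isoforms *Pklr*, *Ldhc* and *Pgk2* were undetected. Several of these enzymes have many processed pseudogenes, and how the authors' counting treated reads shared with them is not known. Of 17 genes of gluconeogenesis, urea cycle and ketone bodies 8 were expressed, among them *Odc1*, the first enzyme of polyamine synthesis (584 ± 7.53 CPM), and *Oxct1*, which uses ketone bodies (258 ± 5.88 CPM). *Pck1* and *G6pc* had no count, and *Ass1*, which makes argininosuccinate, was at 2.82 ± 0.736 CPM.

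Of 47 lipid genes 36 were expressed, with a median of 11.6 CPM/kb. The desaturase *Scd2* led at 1429 ± 4.69 CPM, with *Scd1* at 218 ± 2.34 CPM, and fatty acid synthesis was represented by *Acly* (439 ± 5.98 CPM) and *Fasn* (699 ± 14.0 CPM). *Cd36*, which takes up fatty acids, and *Lpl*, the lipoprotein lipase gene, were undetected. Of 42 genes of amino acid and one-carbon metabolism 31 were expressed, and their median of 14.5 CPM/kb was above the 7.36 CPM/kb of expressed genes. The serine synthesis genes *Phgdh* (739 ± 7.26 CPM) and *Psat1* (562 ± 7.94 CPM), the mitochondrial folate enzyme *Shmt2* (459.9 ± 4.73 CPM) and the amino acid transporter *Slc7a5* (444 ± 10.5 CPM) were the highest. Asparagine synthetase *Asns* was at 174 ± 4.68 CPM and the cystine transporter *Slc7a11* at 29.2 ± 0.812 CPM. Of 37 redox and iron genes 22 were expressed. The ferritin genes *Ftl1* (879 ± 14.0 CPM) and *Fth1* (747 ± 7.28 CPM), the transferrin receptor *Tfrc* (739 ± 3.53 CPM), *Gpx4*, which reduces lipid peroxides (206 ± 4.56 CPM), and *Prdx1* (327 ± 11.8 CPM) were prominent. *Slc40a1*, encoding the only known iron exporter, was undetected. *Hmox1* was at 27.4 ± 0.432 CPM, and *Nqo1*, a target of NRF2, was at 3.66, 2.29 and 1.87 CPM, uneven between the libraries.

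Antigen presentation was split by class. Of 14 genes of MHC class I presentation 13 were expressed, with *B2m* at 273 ± 4.13 CPM, *H2-D1* at 451 ± 5.52 CPM and *H2-K1* at 224 ± 3.04 CPM. They included *Calr* (1027 ± 27.4 CPM), *Canx* (931 ± 10.8 CPM) and *Pdia3* (821 ± 19.2 CPM), chaperones that also fold many other proteins, and the loading factor *Tapbp* (111.7 ± 2.28 CPM). The class I heavy chain genes are near copies of one another, so the division of reads between them is uncertain. The peptide transporter *Tap1* was low at 2.53, 3.61 and 3.30 CPM, and the immunoproteasome gene *Psmb9* was trace. None of 8 MHC class II genes was expressed. *H2-Ab1* had no count, *H2-Aa* had 1, the class II regulator *Ciita* had 3, 5 and 5 and the invariant chain *Cd74* had 5, 13 and 7.

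Inflammasome and cytokine genes were mainly off. Of 16 inflammasome genes 5 were expressed. *Nlrp3* and *Il1b* had no count, *Casp1* had 2 counts in all, and the adaptor *Pycard* was trace with 7, 19 and 21 counts. *Nek7* (86.8 ± 1.36 CPM), a kinase with a role also in mitosis, and the ATP-gated channel *P2rx7* (42.8 ± 1.63 CPM) were the highest expressed members per kilobase, followed by *Il18* and *Aim2*. Of 27 cytokine genes 5 were expressed: *Mif* (529 ± 9.68 CPM), *Csf1*, *Il34*, *Tnfsf9* (11.5 ± 0.659 CPM) and *Lif* (34.7 ± 0.276 CPM). *Tnf* had 1, 1 and 1 counts, *Il6* had 2, 0 and 0, and the alarmin *Il33* had 0, 1 and 0. Of 27 chemokines 9 were expressed, led by the monocyte chemokine *Ccl2* at 26.1, 25.4 and 26.9 CPM and by *Cxcl14* (10.9 ± 0.920 CPM), *Cxcl5* (10.6 ± 0.951 CPM) and *Cxcl10* (7.99 ± 0.858 CPM), with *Ccl25* at 20.0 ± 1.74 CPM but lower per kilobase. The neutrophil chemokine *Cxcl1* was at 2.68 ± 0.640 CPM, and *Cxcl12* and *Cxcl3* were undetected.

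Of 20 innate sensors and adaptors 11 were expressed, among them *Mavs* (55.3 ± 1.49 CPM), cGAS (listed as *Mb21d1*, 40.2 ± 0.658 CPM), STING (listed as *Tmem173*, 18.5 ± 0.0954 CPM) and the Toll-like receptors *Tlr4* (19.3 ± 1.27 CPM) and *Tlr3* (9.13 ± 0.468 CPM). *Ifih1* was at 4.36 ± 0.576 CPM and *Tlr2* had no count. Of 26 interferon target genes 14 were expressed, a share near the background, at a median of 0.469 CPM/kb. *Ifitm3* (99.5 ± 2.81 CPM), *Ifitm2* (93.3 ± 0.930 CPM) and *Bst2* (94.9 ± 3.01 CPM) were the highest, while *Isg15* (5.10 ± 0.587 CPM) and *Ifit1* (1.45 ± 0.193 CPM) were low and *Irf7* was trace. Of 18 checkpoint ligands and ectoenzymes 11 were expressed. *Lgals1*, encoding galectin-1, was at 1632 ± 42.6 CPM, *Lgals3* at 119.5 ± 4.62 CPM, *Lgals9* at 44.9 ± 1.14 CPM, the TIGIT ligand *Pvr* at 127 ± 3.12 CPM, *Cd276* at 62.6 ± 1.10 CPM and *Cd47*, the signal against phagocytosis, at 65.0 ± 0.688 CPM. *Cd274*, encoding PD-L1, was at 3.27, 3.42 and 3.10 CPM and *Pdcd1lg2*, encoding PD-L2, had no count. Of 16 complement genes 5 were expressed, the initiating proteases *C1ra* at 9.45 ± 0.707 CPM and *C1s1* at 4.57 ± 0.360 CPM, the membrane regulators *Cd59a* at 7.97 ± 0.572 CPM and *Cd46* at 4.13 ± 0.150 CPM, and *C2* at 1.47 ± 0.192 CPM, while *C3* was trace at 1.05, 0.801 and 0.995 CPM and *C4b* was trace as well.

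The genes of the merlin and FAK pathways, on which the study turns, were almost all on. *Nf2* (chromosome 11, 4765845 to 4849536, minus strand) was at 177, 174 and 172 CPM. Counts over a whole gene cannot show whether exons between loxP sites are missing, so the genotype was not checked by this value. Of 26 genes of the Hippo pathway 24 were expressed (median 12.5 CPM/kb), with *Yap1* at 159.9 ± 6.20 CPM, *Wwtr1*, encoding TAZ, at 103 ± 3.77 CPM, *Tead1* at 296 ± 1.48 CPM and the YAP target *Ankrd1* at 172 ± 3.62 CPM. *Ctgf*, another YAP target, placed in a matrix list, was at 10.9 ± 0.436 CPM, which at 3.82 CPM/kb is below the median of expressed genes. The only silent members were the cofactors *Vgll1* and *Vgll2*. *Ptk2* (chromosome 15, 73205102 to 73423280, minus strand), which encodes FAK, was at 89.5, 92.4 and 94.4 CPM. Its relative *Ptk2b*, encoding PYK2, was undetected with 0, 3 and 2 counts, so FAK was the member of this kinase family with transcript above the floor. Of 28 genes in the list of FAK and focal adhesions 25 were expressed, among them *Vhl* (35.3 ± 1.90 CPM) and *Crbn* (28.9 ± 0.268 CPM), ubiquitin ligase genes that the list holds beside the adhesion genes, with *Src* at 132 ± 3.56 CPM, the scaffold *Pxn* at 171 ± 3.31 CPM, and *Tln1*, which activates integrins, at 446 ± 6.71 CPM. In the HGF and MET list 4 of 12 genes were expressed. *Spint1*, an inhibitor of HGF activation, had no count, the activator *Hgfac* had 2 counts in all, and *Cd44*, a coreceptor of MET, was expressed.

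Proliferation genes were high, 20 of 21 being expressed at a median of 63.9 CPM/kb, with *Mki67* at 643 ± 15.6 CPM, *Top2a* at 862 ± 4.29 CPM, *Pcna* at 466 ± 4.85 CPM and *Ccnd1* at 589 ± 7.84 CPM, and *Mycn* trace. Of 16 tumor suppressors, arrest genes and telomerase components 14 were expressed. *Cdkn2a*, which encodes p16 and p19ARF and whose counts do not separate them, was at 199, 198 and 188 CPM. *Trp53* was at 286 ± 4.43 CPM, *Rb1* at 14.2 ± 0.347 CPM and *Cdkn1a*, a target of p53, at 15.4 ± 0.534 CPM. *Tert*, the catalytic subunit of telomerase, had no count in an immortalized line. *Terc*, its RNA, had none either, but it lacks a poly(A) tail and is not a fair target of this library type.

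**Figure D5:**
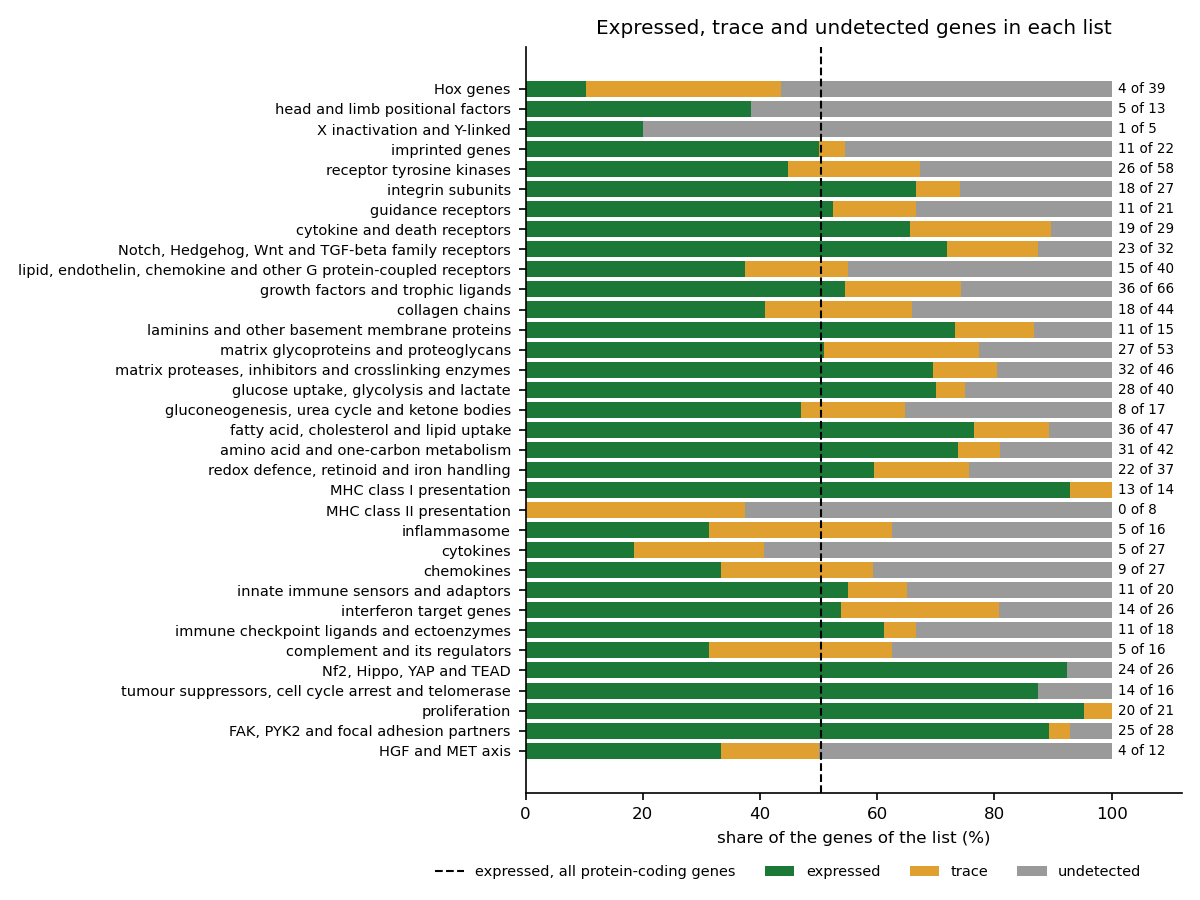
Share in percent (x axis) of the genes of 34 lists of position, receptors, ligands, matrix, metabolism, immunity and tumor pathways (rows) that were expressed, trace or undetected in the DMSO libraries, with the number expressed at the right. The dashed line marks the 50.4% of protein-coding genes that were expressed. MHC class I, Hippo, FAK and proliferation lists lie well to its right, and Hox, MHC class II and cytokine lists to its left.

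The libraries were close to one another. Over 10115 genes with a mean of at least 5 CPM, the median coefficient of variation was 3.04% and the 90th percentile 7.47%. The common biological coefficient of variation estimated by edgeR was 2.27% over the 12203 expressed genes. No library was a copy of another, and the chi-square statistic of the counts in the 3 pairs of libraries, divided by its degrees of freedom, was 1.98, 2.51 and 2.50. Only 3 genes spanned more than 1 on the log2 scale: *Rn7sk*, the 7SK RNA (8.97, 31.0 and 13.3 CPM), *Gm24187* (8.28, 27.1 and 9.99 CPM) and *1810026B05Rik* (9.02, 21.0 and 12.2 CPM), and all 3 were highest in replicate 2. A second set was highest in replicate 3, comprising *Gm42418* (1677, 2207 and 2986 CPM), *Gm23935* (965, 982 and 1564 CPM), *Mir6236* (33.1, 37.1 and 58.2 CPM) and *Lars2* (647, 594 and 993 CPM). Among protein-coding genes the widest after *Lars2* was *Cebpb*, an inflammatory transcription factor, at 15.4, 21.4 and 25.4 CPM. *Zfp991*, a zinc finger gene (5.05, 7.98 and 6.49 CPM), and *6430511E19Rik* (3.97, 6.41 and 5.41 CPM) completed the 10 widest. Mitochondrially encoded transcripts were uneven as well, but between genes. Of the 13 that encode proteins, 7 were at 704 (*mt-Nd6*) to 12760 CPM (*mt-Co1*), whereas *mt-Co2*, *mt-Co3*, *mt-Atp6*, *mt-Atp8*, *mt-Nd3* and *mt-Nd4l* were at 0.363 (*mt-Nd3*) to 3.98 CPM (*mt-Atp6*). How reads that map to several places were counted is not given in the sources used here and its part in this split was not tested. Mitochondrially encoded genes also enter the library totals and the 20 highest genes.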

How the data were processed

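RNA of MS03 cells was sequenced after poly(A) selection (NEBNext Ultra II kit). The authors deposited raw counts, whole numbers of reads per gene and library, with 49315 genes and no normalization. The submitters' processing notes name Trimmomatic 0.36, STAR 2.5.2b, featureCounts, Subread 1.5.2 and the build GRCm38. The annotation, the strand setting and the treatment of reads that map to several places are not given in the sources used here, so overlapping, antisense and near-identical genes are uncertain. Columns were matched to samples by the library number in the labels. The 3 DMSO libraries were described, and the other 21 were not used.

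Counts were divided by the library total of 22952048 to 27449516 to give CPM. Exon lengths (49056 genes) and positions were taken from GENCODE M21 (GRCm38), and promoter windows from RefSeq (GRCm38.p6). Of IDs that share a symbol (*Itgam* and *Ccl19* in the lists), the one with most counts was used. Classes needed 1 CPM in all libraries (expressed) or at most 3 counts in each (undetected). Intervals are exact Poisson intervals at 95% of the counts summed over the libraries. Spread between replicates was estimated with edgeR 4.0.16 (estimateDisp, TMM, 1 group) in R 4.3.3. The classes and this estimate were also run on simulated counts. Silent genes were simulated without any counts, so that their class was fixed in advance. The simulated spread was wider than that found in the data, so the estimate was not checked at its own level. No comparison between groups was made.

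Genes were named from, for each list, its defining genes and up to 4 other expressed members of highest CPM/kb, the 20 highest genes, the 10 of widest spread at a mean of at least 5 CPM, and the members of the pairs. Some that this rule admits are left out, and some are given by class only. Others were named to complete a family, and any value given for them was chosen after it was seen. The gene lists and members were chosen with earlier results of these data known. Alternatives were 0.5 and 2 CPM, 1 count, 1 CPM/kb, TMM, DESeq2 1.42.0 size factors, totals without mitochondrial genes, thinning to the smallest total and leaving out each replicate. One growth factor gene of the lists was not analysed here, and some other members of the lists count in the totals but are not reported by name.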

Additional observations from a re-analysis of the deposited data

How the results depend on the processing

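Levels and classes depended on the threshold and little on scaling. At least 1 count in all 3 libraries, in place of 1 CPM, gave 19524 genes in place of 12203 and 26 pairs with both sides in place of 14. Thresholds of 0.5 and 2 CPM gave 13403 and 11166 genes, and 1 CPM/kb gave 11191 genes and 10 pairs. TMM and DESeq2 size factors left the count at 12203, and leaving out each replicate gave 12312 to 12323. By more than 1.5 times, the count of 24 of 54 lists moved with 1 count, of 7 with 1 CPM/kb, of 5 with 0.5 CPM and of 2 with 2 CPM. The SC lineage list fell from 10 to 6 with 1 CPM/kb, integrins from 18 to 9, and Hox genes from 4 to 1 with 1 CPM/kb or 2 CPM. Without replicate 1 the lymphocyte list held 1 expressed gene, *Lck* (0.871, 1.02 and 1.91 CPM), in place of 0. Of 1158 list genes, 22 were at 1 CPM or more in some libraries only. Totals without mitochondrially encoded genes raised each of 100 defining genes by 3.14% to 3.15%. The biological coefficient of variation was 2.05% to 2.34% without each replicate, and the median number of CpG in windows of expressed genes was 21 at 0.5 CPM. No paired analysis was possible because the results come from no test and from 1 group. Low levels are limited by depth, with 3 counts equal to 0.109 to 0.131 CPM. No library was tested as an outlier, and with 3 libraries such a test would be weak.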
